A study of Mus musculus with 19 samples.

Results

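Immunoglobulin variable segments are the germline gene pieces that encode the antigen-binding end of antibody chains. They were taken as every entry of the deposited counts table whose gene name begins with Ighv, Igkv or Iglv and that had at least 1 count in any of the 19 libraries. Of 348 such entries, 208 had counts and 140 were at 0 in every library. In all, 36682 genes had counts. The 208 segments were 113 heavy, 92 kappa and 3 lambda segments, and the files type 194 as functional segments and 14 as segment pseudogenes. On the coordinates of the files (GRCm39), the heavy segments lay on chromosome 12 between 113536547 and 115964081, all on the minus strand. The kappa segments lay on chromosome 6 between 67532481 and 70681161, with 36 on the plus strand and 56 on the minus strand. The 3 lambda segments lay on chromosome 16 between 18903767 and 19079609.

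As background, a developing B cell joins a variable segment to a joining segment (with a diversity segment between them in the heavy chain), under the recombinases encoded by Rag1 and Rag2. Each mature B cell and its descendants thus carry a fixed heavy and a fixed light chain rearrangement. Antibody-secreting plasma cells hold far more immunoglobulin mRNA per cell than resting B cells do, so the segments of a few plasma cells can make up much of the variable mRNA of a tissue.

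The libraries were stranded poly(A) RNA sequencing of dorsal root ganglia, the clusters of sensory neuron cell bodies beside the spinal cord, pooled from levels L3 to L5 on a single side. All mice were male and homozygous for the MaFIA transgene (macrophage Fas-induced apoptosis), which is driven by the Csf1r promoter and lets the dimerizing drug AP20187 trigger death of the cells that carry it. The 4 groups were AP20187 after destabilization of the medial meniscus (DMM, a knee osteoarthritis surgery; libraries 58, 59, 60, 61 and 62), vehicle after DMM (32, 33, 34, 63 and 64), AP20187 in unoperated naive mice of matching age (1, 3, 4 and 5) and vehicle in such naive mice (1, 2, 3, 4 and 5). Injections were intraperitoneal and daily for 5 days, in DMM mice 8 weeks after surgery, so vehicle mice carried the transgene and received injections too.

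Many segments are close copies of each other, which limits how surely a short read can be given to a segment. Over the 208 segments, a median of 78.0% of all 50-base windows of the transcript occurred in no other segment, and 30 segments had fewer than 50% such windows. The following 3 pairs are shown because they include the 4 segments with the highest mean level and 3 of the segments that passed a test in a comparison. Sequences are the last 300 bases of the coding part of the GENCODE M21 transcripts (GRCm38), matched to the files by Ensembl gene identifier, 5′ to 3′, and capitals mark the bases at which the members of a pair differ. The lambda pair was identical at 96.9% of 351 coding bases, with 11 differences, 8 of them in the stretch shown.
Iglv1: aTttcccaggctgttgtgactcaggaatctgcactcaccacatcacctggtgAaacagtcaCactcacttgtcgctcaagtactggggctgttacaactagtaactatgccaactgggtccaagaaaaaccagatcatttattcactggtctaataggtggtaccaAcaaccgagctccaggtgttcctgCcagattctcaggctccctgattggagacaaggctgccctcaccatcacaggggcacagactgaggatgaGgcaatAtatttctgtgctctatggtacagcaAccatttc
Iglv2: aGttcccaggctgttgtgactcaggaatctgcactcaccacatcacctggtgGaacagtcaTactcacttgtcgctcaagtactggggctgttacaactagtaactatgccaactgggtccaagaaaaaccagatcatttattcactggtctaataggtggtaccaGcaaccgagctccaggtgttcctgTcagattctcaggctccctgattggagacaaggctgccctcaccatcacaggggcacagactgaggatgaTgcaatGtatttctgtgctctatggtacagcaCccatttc

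The heavy pair below was 95.4% identical over 351 coding bases, with 16 differences, 12 of them shown. Of the 50-base windows of Ighv1-72, 7.49% were found in no other segment, and its closest relative by shared windows was Ighv1-62-3. Values for Ighv1-72 are therefore uncertain in their assignment, while Ighv1-53 had 42.4% such windows.
Ighv1-53: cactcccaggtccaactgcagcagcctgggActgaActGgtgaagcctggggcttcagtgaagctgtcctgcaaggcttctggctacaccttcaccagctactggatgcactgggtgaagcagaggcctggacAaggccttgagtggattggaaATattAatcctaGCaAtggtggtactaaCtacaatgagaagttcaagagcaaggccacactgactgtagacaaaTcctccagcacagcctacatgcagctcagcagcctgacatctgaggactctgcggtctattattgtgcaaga
Ighv1-72: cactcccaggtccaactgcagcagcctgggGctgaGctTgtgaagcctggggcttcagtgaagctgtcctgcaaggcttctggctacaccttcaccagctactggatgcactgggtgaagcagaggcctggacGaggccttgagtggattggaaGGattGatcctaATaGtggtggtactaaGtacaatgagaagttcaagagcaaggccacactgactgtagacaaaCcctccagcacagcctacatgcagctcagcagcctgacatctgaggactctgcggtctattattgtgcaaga

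The kappa pair was 97.2% identical over 359 coding bases, with 10 differences, 10 of them shown. About equal shares of their windows were in no other segment, 49.1% in Igkv1-110 and 50.1% in Igkv1-117.
Igkv1-110: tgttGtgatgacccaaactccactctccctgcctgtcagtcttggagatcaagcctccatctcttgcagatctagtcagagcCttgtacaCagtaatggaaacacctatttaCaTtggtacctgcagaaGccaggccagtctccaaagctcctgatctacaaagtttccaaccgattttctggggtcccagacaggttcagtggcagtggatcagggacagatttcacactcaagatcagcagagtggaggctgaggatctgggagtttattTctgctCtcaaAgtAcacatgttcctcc
Igkv1-117: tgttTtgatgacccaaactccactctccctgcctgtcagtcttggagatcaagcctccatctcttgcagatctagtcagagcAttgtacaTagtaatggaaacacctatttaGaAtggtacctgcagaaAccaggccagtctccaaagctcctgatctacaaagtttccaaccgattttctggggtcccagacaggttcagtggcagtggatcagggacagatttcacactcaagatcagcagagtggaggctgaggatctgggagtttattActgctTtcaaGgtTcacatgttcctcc

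Libraries held 60984830 to 74691396 counts over all genes, and 497 to 14392 of these were on variable segments. CPM is a count divided by the TMM-scaled library size, in the usual unit of that name. The labels number the samples but do not say that each was a separate animal, so p-values measure the spread between these samples. The vehicle libraries after DMM carry numbers from separate ranges (32 to 34, and 63 and 64), and no label says what the numbers mark. In such bulk samples, fewer cells of a type and less RNA per cell cannot be told apart.

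Mean variable segment mRNA was higher with AP20187 than with vehicle, with groups that overlapped in naive mice and nearly met after DMM. Summed over all 208 segments, the DMM libraries with AP20187 (58 to 62) held 202, 210, 112, 131 and 174 CPM, a mean of 166 ± 43.1 (SD, n = 5). The DMM vehicle libraries 32, 33, 34, 63 and 64 held 7.66, 18.2, 28.4, 75.6 and 112 CPM, a mean of 48.3 ± 44.0 (SD, n = 5). Each AP20187 library was above each vehicle library on this scale, but the lowest AP20187 and the highest vehicle library were nearly level. In unscaled counts they overlapped, with 7342 counts in AP20187 library 60 and 7597 in vehicle library 64.

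In naive mice the AP20187 libraries 1, 3, 4 and 5 held 115, 96.2, 28.9 and 32.0 CPM (67.9 ± 43.9, SD, n = 4). The naive vehicle libraries 1 to 5 held 22.6, 19.8, 39.5, 39.2 and 17.6 CPM (27.8 ± 10.7, SD, n = 5). Naive AP20187 libraries 1 and 3 were above all vehicle libraries, and libraries 4 and 5 were inside the vehicle range. The ratio of the group means was 3.43 between AP20187 and vehicle after DMM and 2.45 in naive mice. No test was made on sums over the segments.

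**Figure D1:**
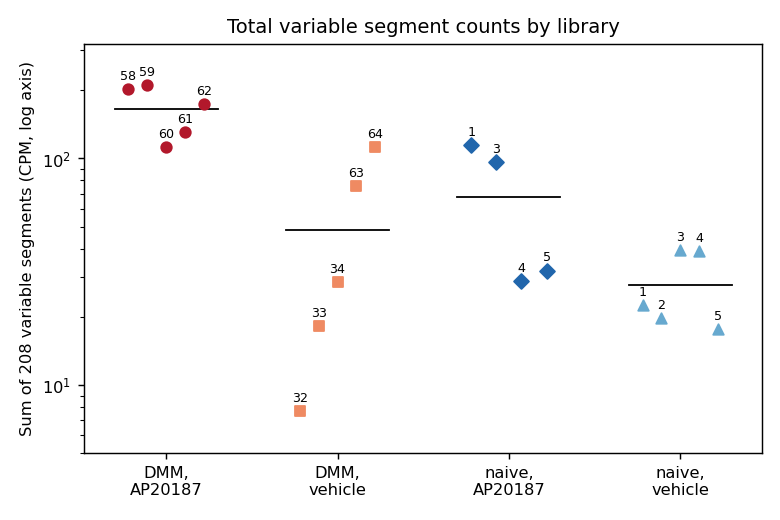
Sum of the 208 variable segments in CPM (log axis) by group, with 1 point per library, its number above it, and a line at the group mean. The DMM libraries with AP20187 lie at 112 to 210 CPM, while the DMM vehicle libraries run from 7.66 to 112 CPM.

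The vehicle libraries after DMM differed most among themselves. Libraries 63 and 64 had a mean of 93.7 CPM and libraries 32, 33 and 34 a mean of 18.1 CPM. The mean log2 difference of AP20187 from vehicle after DMM was 2.33 with all 5 vehicle libraries and 0.81 against libraries 63 and 64. DMM and naive vehicle libraries overlapped (ratio of means 1.74), and their mean log2 difference was 0.29 with all vehicle libraries and 1.81 with libraries 63 and 64 alone. Sums of other gene lists differed between the same vehicle libraries. Libraries 63 and 64 had means of 19132 CPM of erythroid, 3404 CPM of granulocyte precursor and 22.9 CPM of T cell genes, and libraries 32, 33 and 34 had means of 3698, 699 and 6.50 CPM. Other lists went the other way, with 756 against 1354 CPM of early B cell and recombination genes and 5469 against 7393 CPM of sensory neuron genes. Their part in the variable totals was not tested. Among AP20187 libraries, the mean log2 difference of DMM from naive was 1.51, and 4 of 5 DMM libraries were above all naive ones.

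Heavy, kappa and lambda segments held 45.7%, 46.9% and 7.35% of all 95688 variable counts. Heavy and kappa sums ranked the libraries alike (Spearman's rho 0.925 over 19 libraries, given as a description, since both come from the same library). Heavy segments took 42.3% to 51.4% of the variable counts with AP20187 after DMM and 42.9% to 56.0% with vehicle. They took 32.2% to 48.3% in naive mice with AP20187 and 44.7% to 55.9% with vehicle, so 3 of 4 naive AP20187 libraries were below all vehicle libraries. Lambda shares ran from 2.88% in naive vehicle library 5 to 16.2% in DMM vehicle library 64.

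The number of segments seen was lower with AP20187 in naive mice, without overlap, and overlapped between the groups after DMM. In the AP20187 libraries after DMM, 92, 97, 78, 70 and 70 segments had a count, against 51, 93, 121, 118 and 158 with vehicle. In naive mice the numbers were 63, 56, 38 and 44 with AP20187 and 97, 97, 131, 101 and 99 with vehicle. The 4 naive AP20187 libraries were below all 5 vehicle libraries, although libraries 1 and 3 had 6627 and 5695 variable counts and the naive vehicle libraries 1273 to 2961. After DMM the groups overlapped through vehicle libraries 32 and 33. Library 32 had the fewest variable counts of all, at 497.

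Drawing 497 counts from each library, the number library 32 itself had, put the libraries at equal depth. The expected number of segments was then 57.8, 56.2, 55.2, 42.1 and 43.5 with AP20187 after DMM and 51.0, 84.4, 106, 88.7 and 107 with vehicle. It was 45.7, 36.6, 33.1 and 38.3 in naive mice with AP20187 and 86.6, 86.0, 104, 83.1 and 85.9 with vehicle. All 9 AP20187 libraries were below 9 of the 10 vehicle libraries, and DMM vehicle library 32 lay among the AP20187 libraries. The difference of the group means was -36.3 segments after DMM and -50.7 in naive mice, and without library 32 the first was -45.4.

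Use was less even with AP20187 in naive mice. The effective number of segments (the inverse Simpson index, the number of equally used segments that would give the same concentration) was 24.3, 23.0, 33.3, 16.5 and 19 with AP20187 after DMM and 14.8, 33.8, 53.5, 34.2 and 36.8 with vehicle. The naive values were 12, 6.44, 9.89 and 17.4 with AP20187 and 40.3, 40.2, 49.9, 22 and 32.8 with vehicle. The naive groups did not overlap, and the DMM groups overlapped through library 32. Among heavy segments alone the naive groups were also apart, at 3.16 to 8.27 with AP20187 and 10.6 to 27.4 with vehicle. Among kappa segments they were at 2.40 to 8.29 and 11.0 to 25.3.

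**Figure D2:**
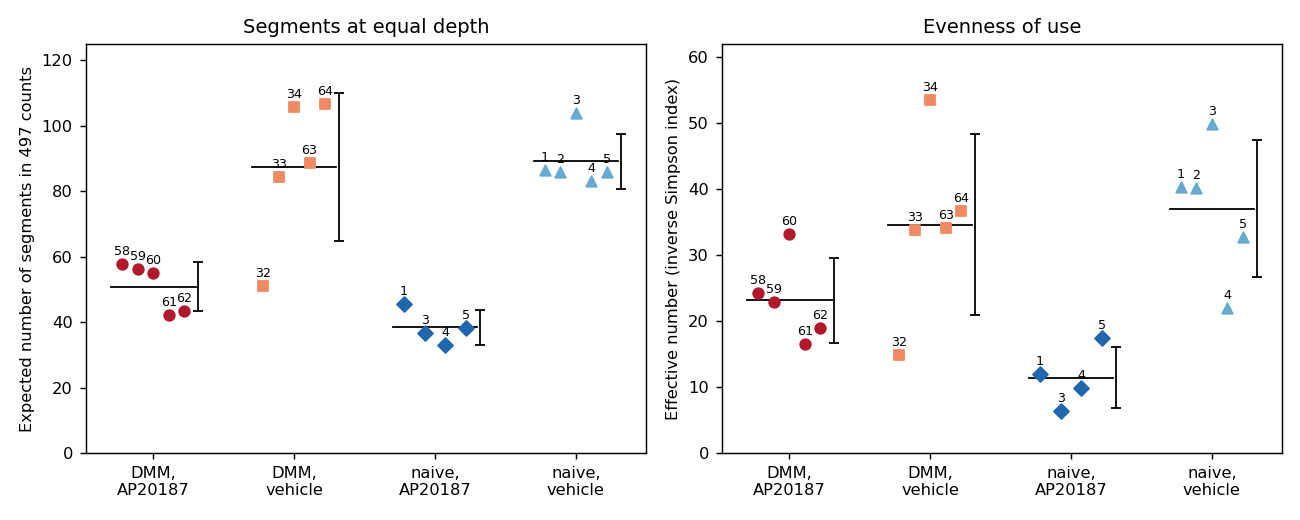
Left, expected number of segments in 497 counts drawn from each library. Right, effective number of segments (inverse Simpson index). Points are libraries with their numbers, lines are group means and bars are SD. In naive mice the AP20187 libraries lie at 33.1 to 45.7 segments and the vehicle libraries at 83.1 to 104.

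DMM and naive libraries with vehicle had like evenness, with mean effective numbers of 34.6 ± 13.7 and 37.0 ± 10.4 (SD, n = 5 each). With AP20187 the DMM libraries had a mean of 23.2 ± 6.42 (SD, n = 5) and the naive libraries 11.4 ± 4.60 (SD, n = 4). Of the 5 DMM libraries with AP20187, 4 were above the highest naive AP20187 library, at 17.4.

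Single segments took large shares of some libraries. The most used segment held 9.46%, 11.0%, 6.18%, 16.3% and 10.4% of the variable counts with AP20187 after DMM and 17.9%, 6.64%, 6.50%, 6.68% and 9.69% with vehicle. It held 23.3%, 25.8%, 17.5% and 11.5% in naive mice with AP20187 and 7.85%, 5.73%, 5.54%, 14.4% and 9.77% with vehicle. The 3 highest naive AP20187 libraries were above all naive vehicle libraries, while after DMM the groups overlapped. The 5 most used segments together held 49.0%, 80.3%, 64.4% and 41.6% of naive AP20187 libraries 1, 3, 4 and 5. They held 22.2% to 40.0% of the naive vehicle libraries.

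**Figure D3:**
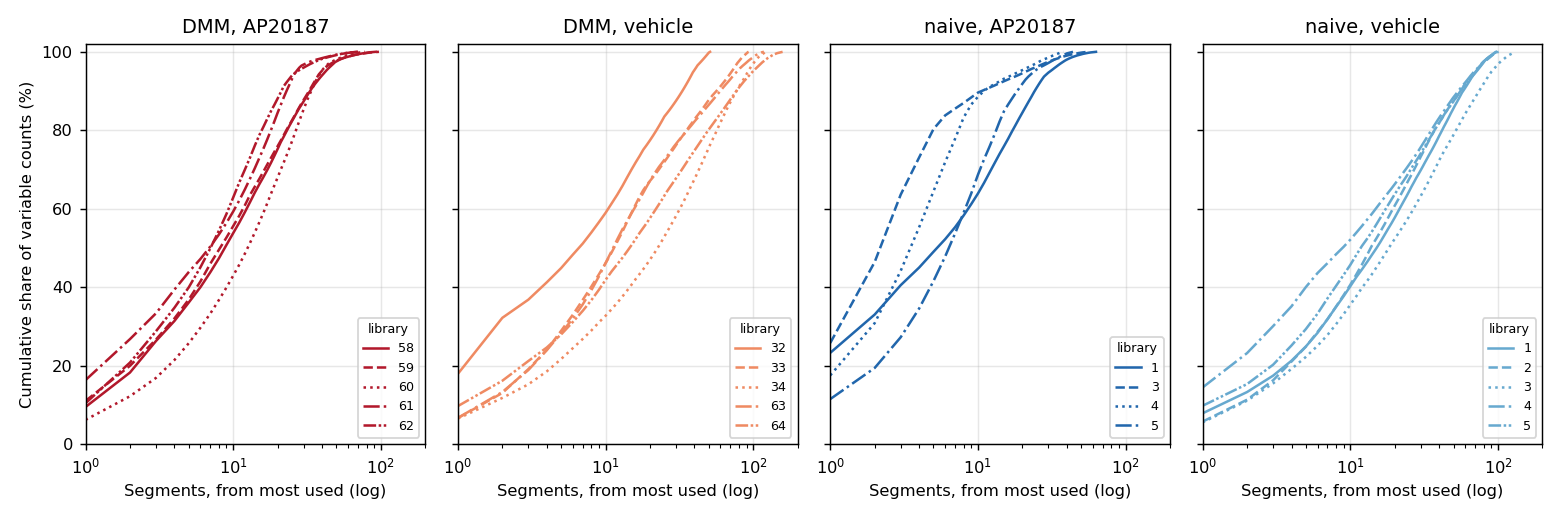
Cumulative share of the variable counts of a library against the number of segments, ranked from the most used (log axis), with 1 panel per group and 1 line per library. In naive AP20187 library 3 the first 5 segments reach 80.3%, while in naive vehicle library 3 they reach 22.2%.

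The dominant segments differed from library to library. Over the 19 libraries there were 15 different most used segments, counting both of a pair that tied in naive vehicle library 3, and no 2 libraries of a group shared theirs. Counting the most used heavy and the most used light segment together, all 19 pairs were different. In naive AP20187 library 3, Ighv1-4 had 1176 counts (42.7% of heavy counts) and Igkv10-96 had 1468 (49.9% of light counts). In DMM AP20187 library 62, Ighv1-82 had 1062 and Igkv1-110 had 1066 counts. A count table does not show whether such a heavy and light segment come from the same cells.

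With AP20187 after DMM the most used segments were Ighv1-53 (library 58), Igkv3-5 (59), Igkv10-96 (60), Igkv1-117 (61) and Igkv1-110 (62). With vehicle after DMM they were Ighv1-81 (32), Igkv1-117 (33), Igkv6-15 (34), Igkv12-46 (63) and Iglv1 (64). In naive mice with AP20187 they were Igkv1-110 (library 1), Igkv10-96 (3), Igkv14-126 (4) and Igkv3-4 (5), and with vehicle Igkv8-27 (1), Ighv1-42 (2), Iglv1 tied with Igkv1-135 at 164 counts each (3), Ighv9-3 (4) and Igkv12-46 (5). With ties included, 52 segments were among the top 5 of any library, and 33 of these were so in a single library.

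**Figure D4:**
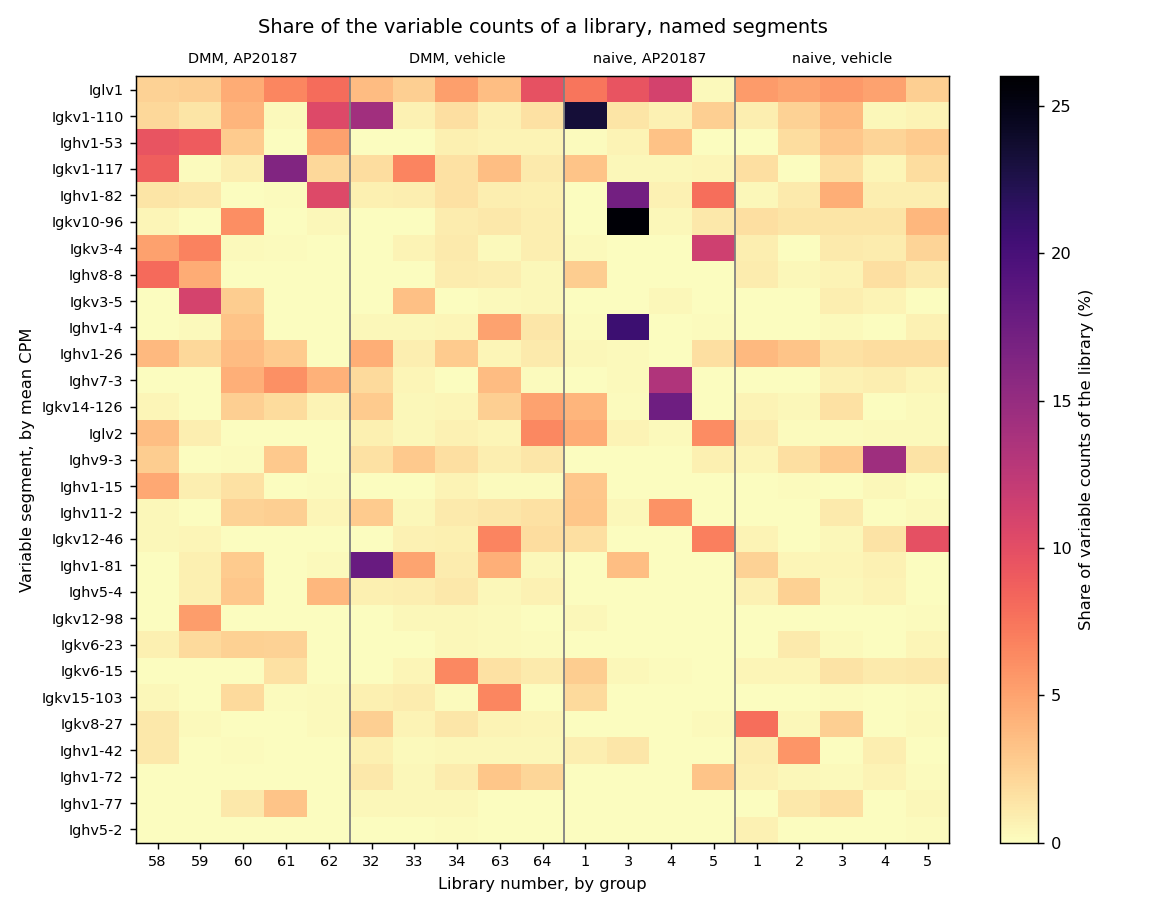
Share of the variable counts of a library (colour, in %) held by each named segment (rows, ordered by mean CPM) in the 19 libraries (columns, by group). Many rows are darkest in a single library and pale in most others, such as Igkv10-96 in naive AP20187 library 3 at 25.8%.

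Many segments drew a large share of their counts from a single library. Iglv1 and Igkv1-110 were the 2 segments with counts in every library, and 26 segments had counts in a single library. Among tested genes with at least 100 counts, 50 of 22497 took more than 50% of their counts from 1 library, and 31 of these 50 were variable segments, which is 32.3% of the 96 such segments against 0.222% of all such genes. The median share from the highest library was 39.1% for the segments and 9.97% for all tested genes. Without the filter for testing, 50 of 119 segments with at least 100 counts (42.0%) took more than 50% from 1 library. The median share of these 119 segments was 44.0%. The edgeR estimate of biological variation between libraries of a group (the coefficient of variation) had a median of 1.75 over 97 tested segments and 0.392 over all 22778 tested genes. It describes segments that passed the filter on counts, and the others have no estimate here.

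Shares of segments overlapped least between naive AP20187 libraries. The share overlap of a pair of libraries is the sum over segments of the smaller of the 2 shares. Its median was 14.9% over 6 pairs within naive AP20187, 27.0% over 10 pairs within DMM AP20187, 39.0% over 10 pairs within DMM vehicle and 42.1% over 10 pairs within naive vehicle. Between DMM vehicle and naive vehicle it was 39.3% over 25 pairs, near the values within those groups. Between AP20187 and vehicle it was 30.1% over 25 pairs after DMM and 20.6% over 20 pairs in naive mice. Between DMM AP20187 and naive AP20187 it was 23.2% over 20 pairs. It was 28.4% over 25 pairs between DMM AP20187 and naive vehicle, and 22.4% over 20 pairs between DMM vehicle and naive AP20187. Pairs share libraries, so these are descriptions.

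Of the 208 segments, 153 had counts under both treatments, 47 in vehicle libraries alone and 8 in AP20187 libraries alone. The 47 held 930 counts together and at most 34 in a library, although the 10 vehicle libraries had 25614 variable counts and the 9 AP20187 libraries 70074. The 8 held 259 counts. With AP20187, 5 segments had counts in every naive library and 24 in every DMM library, while with vehicle the numbers were 31 and 32.

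By mean level over all libraries, Iglv1 was highest, at 4.30 CPM and 10.3 FPKM (fragments per kilobase of gene and per unit of depth, the scale on which levels of different genes can be compared). Igkv1-110 followed at 3.44 CPM and 7.59 FPKM, Ighv1-53 at 2.94 CPM and 8.23 FPKM, and Igkv1-117 at 2.92 CPM and 7.05 FPKM. Of the 10 highest by CPM, 9 were also among the 10 highest by FPKM. Iglv1 was also the most evenly spread of these, with 15.8% of its counts from its highest library, against 82.1% for Igkv3-5.

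Iglv1 (chromosome 16, 18903767 to 18904250) is the variable segment of most mouse lambda chains. It was at 4.88, 5.56, 5.11, 8.64 and 13.9 CPM with AP20187 after DMM and at 0.278, 0.463, 1.5, 2.66 and 10.8 CPM with vehicle. Naive libraries held it at 8.58, 9.12, 3.21 and 0.0972 CPM with AP20187 and at 1.23, 0.980, 2.19, 1.98 and 0.454 CPM with vehicle. It was thus above 4 of 5 DMM vehicle libraries in every DMM AP20187 library, and its highest and lowest naive values were both with AP20187. Iglv2 (chromosome 16, 19079151 to 19079609), its near copy shown above, was at 7.12 and 1.80 CPM in DMM AP20187 libraries 58 and 59 and at 0 in libraries 60, 61 and 62.

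Gene by gene, 97 segments had enough counts to be tested, and they held 92.2% of the variable counts. They passed the filter through the libraries in which they were high. Summaries over them, here and elsewhere, are thus descriptions and not support for a difference between groups. After DMM, 7 of the 97 differed between AP20187 and vehicle by edgeR's quasi-likelihood test (adjusted p under 0.05 over all tested genes), where 23.8% of all tested genes did. Of these, 6 were higher with AP20187 (11.3% of all tested genes were) and 1 was lower (12.4%). Without adjustment, 31 of 97 (32.0%) had p under 0.05, where 37.3% of all tested genes did, and DESeq2 called 13 of 90 segments, where it called 31.4% of all genes. The groups overlapped in each of the 7 that edgeR called. Of all 97, 0 lay higher or lower with AP20187 without overlap, where 8.71% and 4.18% of all tested genes did. The spread between libraries was larger for the segments, with a median SE of the log2 fold change of 1.58 against 0.355 over all tested genes.

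Ighv1-53 (chromosome 12, 115122023 to 115122455, a heavy segment of the large Ighv1 family) rose and had the smallest adjusted p of the 7. It was at 19.1, 18.8, 3.14, 0.120 and 8.92 CPM with AP20187 and at 0, 0, 0.212, 0.393 and 0.648 CPM with vehicle. AP20187 library 61 lay inside the vehicle range and the other 4 were above it. The log2 fold change was 5.31 (SE 1.35, edgeR adjusted p 0.0104), and the adjusted p was 0.00421 to 0.0273 as each of the 10 libraries was left out.

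Igkv6-23 (chromosome 6, 70237393 to 70237939, a kappa segment) was at 1.5, 4.11, 2.76, 3.13 and 0.102 CPM with AP20187 and at 0, 0, 0.0908, 0.166 and 0.177 CPM with vehicle. AP20187 library 62 lay inside the vehicle range and the other 4 above it. The log2 fold change was 4.71 (SE 1.20, adjusted p 0.0105), with adjusted p of 0.00824 to 0.0281 as each library was left out. Ighv1-53 was the most used segment of library 58, and Igkv6-23 was the most used of no library.

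Ighv1-72 (chromosome 12, 115721604 to 115722081), the near copy of Ighv1-53, fell. It had 4 counts in AP20187 library 60 and 0 in the other 4, against 0.0925, 0.0597, 0.288, 2.33 and 2.44 CPM with vehicle. Libraries 63 and 64 were the high ones. The log2 fold change was -6.20 (SE 1.76, adjusted p 0.0181), a size that depends on the prior count of the model. From pooled counts, 349 with vehicle and 4 with AP20187, the ratio was 85.5, with a 95% exact Poisson interval from the lower count of 33.4 to 314. The interval takes each count as an independent molecule, and if a count is a read rather than a read pair it is too narrow even for counting error. It passed as each library was left out, with adjusted p of 0.0201 to 0.0468.

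The calls of the other 4 segments did not hold in every fit that left out a library. Ighv1-26 was higher with AP20187 (log2 fold change 2.81, adjusted p 0.0202), at 3.98 ± 2.68 against 0.566 ± 0.435 CPM (SD, n = 5 each), with 4 of 5 AP20187 libraries above the vehicle range. It did not pass without AP20187 library 58 or vehicle library 32 or 33 (adjusted p up to 0.0591). Ighv1-15, Igkv12-98 and Igkv3-5 had adjusted p of 0.0480, 0.0481 and 0.0497. Igkv3-5 was at 23.2 CPM in AP20187 library 59 and 0.120 to 2.96 CPM in the other 4, and without library 59 its log2 fold change was 1.83 (adjusted p 0.446). It also did not pass without AP20187 library 58 or 60 or vehicle library 32, 33, 34 or 63.

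Ighv1-15 passed in 2 of 10 fits that left out a library (adjusted p 0.0319 to 0.187), and without AP20187 library 58, where it was at 9.49 CPM, its adjusted p was 0.187. The fits without AP20187 library 61 and without vehicle library 64 were those it passed in. Igkv12-98 was at 11.3 CPM in AP20187 library 59 and at most 0.152 CPM in the other 4. It passed in 3 of the 7 fits that still tested it, not without vehicle library 32, 33, 34 or 64 (adjusted p up to 0.100), and without library 59 it had too few counts to be tested.

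The choice of vehicle libraries mattered for these calls. Against libraries 63 and 64 alone, Ighv1-72 was the single segment of those tested that passed (adjusted p 0.0312), where 4.73% of all tested genes did, and Ighv1-53 and Igkv6-23 had adjusted p of 0.170 each. Their log2 fold changes were still 4.29 and 3.79 there, with 2 vehicle libraries left in the test. Against libraries 32, 33 and 34 alone, 11 of 95 segments passed, where 36.3% of all tested genes did, with log2 fold changes of 7.11 for Ighv1-53 (adjusted p 0.00725), 6.17 for Igkv6-23 (adjusted p 0.00772) and -3.39 for Ighv1-72 (adjusted p 0.144). What the number ranges mark is not given in the labels, and its part in these calls was not tested.

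In naive mice, 1 of 97 segments passed, where 11.2% of all tested genes did (8.61% higher and 2.57% lower with AP20187). Without adjustment, 25 of 97 (25.8%) had p under 0.05, where 28.8% of all tested genes did. DESeq2 called 9 segments, where it called 17.8% of all genes, and edgeR called 0 without TMM scaling or without the filter on low counts. Of the 97, 0 lay higher or lower without overlap, where 9.39% and 6.15% of all tested genes did. The segment that passed was Igkv1-110 (chromosome 6, 68247469 to 68248251), higher with AP20187 (log2 fold change 3.93, SE 1.25, edgeR adjusted p 0.0492). It was at 26.7, 1.33, 0.202 and 0.842 CPM with AP20187 and at 0.189, 0.466, 1.47, 0.129 and 0.107 CPM with vehicle. Library 1 was high and the other 3 AP20187 libraries were inside the vehicle range, and without library 1 the log2 fold change was 0.74 (adjusted p 0.684). It also did not pass without AP20187 library 3 or vehicle library 1, 2, 4 or 5.

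Between DMM and naive mice with vehicle, 0 of 97 segments passed by edgeR, where 0.0% of all tested genes did. Without adjustment, 7 segments (7.22%) had p under 0.05, where 1.66% of all tested genes did, and DESeq2 also called 0. Through the filter, the larger share among segments is a description and not support for a difference. None of the 97 lay apart without overlap, where 0.127% of all tested genes lay higher and 0.11% lower in DMM. The smallest unadjusted p among named segments was for Igkv15-103 (log2 fold change 5.46), which was at 4.99 CPM in DMM vehicle library 63 and at most 0.179 CPM in the other 4.

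Between DMM and naive mice with AP20187, 1 segment passed, where 0.702% of all tested genes did (0.263% higher and 0.439% lower in DMM). Without adjustment, 38 of 97 segments (39.2%) had p under 0.05, where 16.7% of all tested genes did. Segments entered through the libraries in which they were high, so the larger share is a description and not support for a difference. DESeq2 called 19 of 107 segments, where it called 4.53% of all genes, and edgeR called 0 without the filter on low counts and 2 without TMM scaling. Igkv6-23 was at 0.102 to 4.11 CPM in the 5 DMM libraries and at 0, 0.0507, 0 and 0 CPM in the naive ones, so the groups did not overlap. Of the 97 tested segments, 2 lay higher in DMM without overlap (Igkv6-23 and Igkv3-5), where 3.46% of all tested genes did, and 0 lay lower, where 2.44% did. The log2 fold change of Igkv6-23 was 7.32 (SE 1.59, adjusted p 0.0441). From 776 pooled counts in DMM and 3 in naive libraries the ratio was 189, with an exact Poisson interval of 64.8 to 918. The interval covers at most counting error, under the same assumption, and not the spread between the DMM libraries. The call did not hold without DMM library 58, 59 or 60 or any of the 4 naive libraries (adjusted p up to 0.100).

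For the interaction, the AP20187 effect after DMM minus that in naive mice, 0 segments passed by edgeR, where 0.114% of all tested genes did (0.0483% with a higher and 0.0659% with a lower effect after DMM). Without adjustment, 21 of 97 segments (21.6%) had p under 0.05, where 7.67% of all tested genes did. The larger share among segments is again a description and not support for a difference. DESeq2 called 5 of 107 segments, where it called 0.940% of all genes. The smallest unadjusted p was for Igkv6-23 (log2 difference 7.23, SE 1.90, adjusted p 0.199). In naive mice alone Igkv6-23 had a log2 fold change of -2.52 with AP20187 (adjusted p 0.268).

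Among families of related segments, Ighv1 held 61.4% of heavy counts with 54 of the 113 heavy segments (47.8%). Its mean share was 60.6% ± 15.2 with AP20187 after DMM, 57.9% ± 5.65 with vehicle after DMM, 61.3% ± 26.4 in naive mice with AP20187 (SD, n = 4) and 53.6% ± 5.89 with vehicle (SD, n = 5 in the other 3 groups). The means were within the spread of the libraries, and the widest range was in naive AP20187, from 33.6% to 93.3%. Igkv1 (7 segments) and Igkv4 (24 segments) were the largest kappa families, with 20.3% and 18.4% of kappa counts. Igkv10 took 62.1% of the kappa counts of naive AP20187 library 3, and Ighv7 took 41.4% of the heavy counts of naive AP20187 library 4.

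The 3 segments of family Igkv13, singled out after their values were seen, took smaller shares with AP20187 after DMM. They held 0% to 0.0562% of kappa counts with AP20187 after DMM and 0.917% to 5.63% with vehicle, with no overlap. Over all libraries they held 0.481% of kappa counts, so these shares rest on few counts. In naive mice they held 0% to 0.203% with AP20187 and 0% to 4.82% with vehicle. Segments typed as pseudogenes, which cannot encode a working chain, held 0% to 0.398% of variable counts in the 9 AP20187 libraries and 0% to 1.44% in the vehicle libraries.

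Of 3 segments chosen for their known use, Ighv11-2 and Igkv14-126 form antibodies against phosphatidylcholine that are known from B-1 cells, a self-renewing B cell type of body cavities. Ighv11-2 (chromosome 12, 114011861 to 114012432) was at 0.652, 0.0585, 2.67, 3.37 and 0.815 CPM with AP20187 after DMM and at 0.216, 0.0597, 0.303, 0.982 and 1.75 CPM with vehicle. Naive libraries held it at 3.49, 0.389, 1.71 and 0.0324 CPM with AP20187 and at 0, 0, 0.427, 0.0323 and 0.0535 CPM with vehicle. It did not pass in naive mice (log2 fold change 3.72, SE 1.34, adjusted p 0.0789).

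Igkv14-126 (chromosome 6, 67873156 to 67873626) was at 0.970, 0.0585, 2.85, 2.50 and 0.90 CPM with AP20187 after DMM and at 0.216, 0.0597, 0.121, 1.92 and 5.62 CPM with vehicle. The naive values were 4.60, 0.186, 5.06 and 0 CPM with AP20187 and 0.126, 0.0622, 0.640, 0 and 0.0535 CPM with vehicle. The libraries high in the heavy segment were high in the light segment, with a Spearman's rho of 0.889 over 19 libraries, given as a description. All 50-base windows of Igkv14-126 were in no other segment, against 61.4% for Ighv11-2. Ighv5-2, which precursor B cells use early, had 21 counts in all, 0 of them in the 9 AP20187 libraries.

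Other genes of the antibody system were read from fixed lists. Variable totals followed the sum of 12 constant region genes, which encode the shared end of the chains, with a Spearman's rho of 0.926 over 19 libraries. The ratio of variable to constant CPM was 0.371 to 0.559 with AP20187 after DMM and 0.137 to 0.275 with vehicle, with no overlap. In naive mice it was 0.251 to 0.494 and 0.199 to 0.269.

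Of 11 tested constant genes, 2 rose and 1 fell with AP20187 after DMM by edgeR, a share near the 23.8% of all tested genes that changed. In naive mice 0 passed by edgeR, with 5 at an unadjusted p under 0.05 and 3 called by DESeq2. Ighg1, an IgG constant gene, was at 15.3, 0.409, 28.1, 17.2 and 19.9 CPM with AP20187 after DMM and at 0.185, 2.12, 1.21, 0 and 3.28 CPM with vehicle (log2 fold change 3.57, SE 0.99, adjusted p 0.0161). Ighg3 rose by 6.80 (adjusted p 0.0122). Ighd, the IgD gene of mature naive B cells, fell by 2.66 (adjusted p 0.0159). Igha, for IgA, was at 53.6 to 173 CPM with AP20187 and 3.82 to 81.2 CPM with vehicle and did not pass (adjusted p 0.107).

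Between treatments, most mature B cell genes fell while the mean variable total was higher. Of 12 mature B cell genes, 10 fell and 1 rose with AP20187 after DMM, where 23.8% of all tested genes changed, and 8 fell and 1 rose in naive mice, where 11.2% did. Cd79a, a signalling subunit of the B cell receptor, was at 0.818, 0.541, 0.549, 0.914 and 1.12 CPM with AP20187 after DMM and at 1.28, 4.46, 10, 13.6 and 28.4 CPM with vehicle, with no overlap (log2 fold change -3.87, SE 0.65, adjusted p 0.000798). In naive mice it fell by 2.93 (SE 0.68, adjusted p 0.0113). Pax5, the B cell identity factor, fell by 4.33 (adjusted p 0.00115) and 3.57 (adjusted p 0.00941). Cd37, found on other leukocytes too, rose.

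The sum of the 10 mature B cell genes without Cd37 and Ebf1, a choice made after their values were seen because these 2 are also expressed in other cells, was 4.58 to 18.3 CPM with AP20187 after DMM and 15.4 to 193 CPM with vehicle. In naive mice it was 6.02 to 12.4 CPM with AP20187 and 30.8 to 86.1 CPM with vehicle. The sum of all 12 listed genes was 149 to 206 CPM with AP20187 after DMM and 180 to 329 CPM with vehicle, with overlap. In naive mice the 12-gene sum was 154 to 189 CPM with AP20187 and 199 to 263 CPM with vehicle. Cd37 and Ebf1 made up 41.2% to 97.5% of the 12-gene sum of a library. Vehicle library 32, whose segment number lay among the AP20187 libraries, also had the lowest B cell sum of the vehicle libraries. Inside the vehicle group after DMM the 10-gene sum was higher where the variable total was higher, at 15.4, 28.1, 74.4, 95.2 and 193 CPM in libraries 32, 33, 34, 63 and 64. Over the 19 libraries the 10-gene sum had a Spearman's rho of 0.879 with the number of segments at equal depth and -0.325 with the variable total. For the sum of all 12 listed genes the values were 0.718 and -0.335. All 4 values are descriptions.

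**Figure D5:**
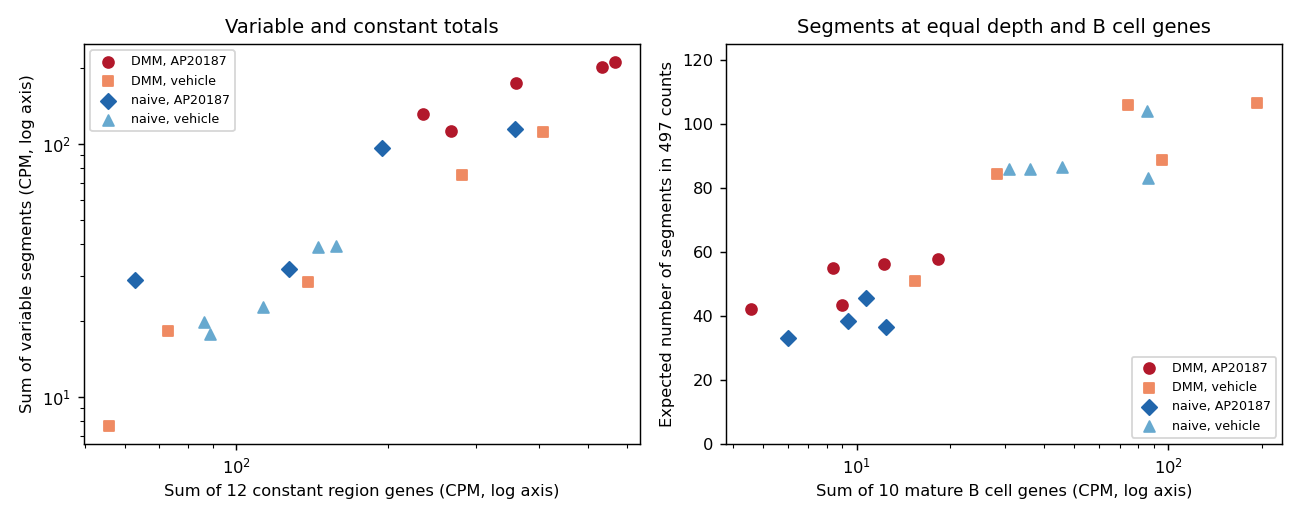
Left, sum of variable segments against the sum of 12 constant region genes (CPM, log axes). Right, expected number of segments in 497 counts against the sum of 10 mature B cell genes, without Cd37 and Ebf1 (CPM, log axis). Points are libraries by group. The AP20187 libraries lie at 4.58 to 18.3 CPM of B cell genes and 33.1 to 57.8 segments.

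Of 11 tested genes of early B cells and recombination, 6 fell and 1 rose with AP20187 after DMM, and 4 fell and 2 rose in naive mice, beside the same 23.8% and 11.2% of all tested genes. Rag1, the recombinase gene, was at 0.0606, 0, 0, 0.180 and 0.0510 CPM with AP20187 after DMM and at 1.51, 3.37, 7.75, 7.39 and 12.9 CPM with vehicle. The groups did not overlap, and the log2 fold change was -6.77 (SE 0.88, adjusted p 0.000117). In naive mice Rag1 fell by 7.0 (SE 1.02, adjusted p 0.000540). Rag1 is from the genes of the list that fell. Over all 11 genes the median log2 fold change was -1.49 after DMM and -0.952 in naive mice.

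Of 12 plasma cell genes, 4 rose and 2 fell with AP20187 after DMM, where 11.3% of all tested genes rose and 12.4% fell. In naive mice 3 rose and 1 fell, where 8.61% and 2.57% of all tested genes did. Xbp1, a secretory pathway factor that many secreting cells use, rose by 1.5 after DMM (SE 0.20, adjusted p 0.000120) and 1.45 in naive mice (SE 0.20, adjusted p 0.000405). Creld2 and Tnfrsf13b rose in both, by 1.41 and 1.80 after DMM. These 3 are from the genes of the list that rose. Over all 12 genes the median log2 fold change was 0.952 after DMM and 0.0887 in naive mice. Jchain, which joins secreted IgA and IgM and is a defining plasma cell gene, was at 42.2, 39.3, 23.7, 23.0 and 27.5 CPM with AP20187 after DMM and at 1.17, 3.42, 3.99, 26.5 and 19.6 CPM with vehicle. The groups overlapped and it did not pass (log2 fold change 1.51, adjusted p 0.105).

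The granulocyte precursor list ranked with the variable totals. Its sum was at 11650 to 19812 CPM with AP20187 after DMM, 267 to 5018 CPM with vehicle after DMM, 5564 to 16787 CPM in naive AP20187 and 557 to 1582 CPM in naive vehicle, and 7 and 8 of its 8 genes rose with AP20187 after DMM and in naive mice, where 11.3% and 8.61% of all tested genes did. Its Spearman's rho with the variable total was 0.882 over 19 libraries, as a description. The rho was 0.923 for the plasma cell list and -0.798 for the list of early B cell and recombination genes, also as descriptions. Of 7 tested erythroid genes, 5 fell after DMM, where 12.4% of all tested genes did, and 0 passed in naive mice by edgeR (1 at an unadjusted p under 0.05, 0 called by DESeq2), and the rho of their sum with the variable total was -0.0860. Of 12 sensory neuron genes, 7 fell with AP20187 after DMM, beside the same 12.4%. In naive mice 0 of these 12 passed by edgeR, with 5 at an unadjusted p under 0.05 and 3 called by DESeq2. Of 10 T cell genes 0 passed by edgeR after DMM and in naive mice, with 2 and 1 at an unadjusted p under 0.05 and 1 and 0 called by DESeq2. The part of these cells in the variable totals was not tested.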

How the data were processed

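RNA of 19 dorsal root ganglion samples was sequenced with a stranded poly(A) kit. The deposited files hold a table of unnormalized gene counts and a table of FPKM, both made by the authors. Per the submitters' processing notes the tools were cutadapt, HISAT2 and StringTie with genome build GRCm39. The annotation and the counting settings are not given in the sources used here, so it is not known how reads shared by near-identical segments were assigned, or whether a count is a read or a read pair (64.8% of the segments' nonzero counts were even, against 52.1% over all genes). Reads with junctional or somatic changes may not align to a germline segment. Of 56691 entries in the deposited count table, 6448 had no name and held 0.414% to 1.72% of the counts.

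Libraries held 60984830 to 74691396 counts. Counts were tested with edgeR 4.0.16 (R 4.3.3): filterByExpr with a minimum count of 10, TMM scaling, and the quasi-likelihood test on 1 fit of all 4 groups (15 residual degrees of freedom), with Benjamini-Hochberg adjustment over 22778 genes. The 5 contrasts were AP20187 against vehicle after DMM and in naive mice, DMM against naive with each treatment, and the interaction. The fit was tested on simulated data. Alternatives were RLE or no scaling, no filter, DESeq2 1.42.0, each library left out, a replicate block and the vehicle libraries split by number. Totals, diversity and dominance are given with no test. No label says whether the replicate numbers that naive groups share pair the samples.

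Segments named are the 5 heavy, 5 kappa and 2 lambda segments with the highest mean CPM, the most used segment of each library, those that passed (or, with none, the 3 with the smallest p), and Ighv5-2, Ighv11-2 and Igkv14-126. The members and lists were chosen with earlier results of these data known. Sequences were aligned with Biopython 1.88, and figures were drawn with matplotlib 3.10.9.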

Additional observations from a re-analysis of the deposited data

Results flagged for a closer look

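In 47 of 164 groups of 4 or 5 libraries looked at, the highest library stood further from the rest than Dixon's 95% critical value allows. Chance flags about 1 in 20 groups of values from a normal distribution, a rate that does not apply to these segments. Many were named for being the most used in a library, and a single value above zeros stands apart by construction. Of the 47, 42 were CPM values of 24 of the 29 named segments and 5 were measures of a whole library, and in each of the 47 it was the highest library that stood apart. They fell in naive AP20187 (17), DMM AP20187 (12), naive vehicle (11) and DMM vehicle (7).

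Among whole-library measures, DMM vehicle library 64 held 18.1 CPM of lambda segments, 16.2% of its variable counts. DMM vehicle library 32 gave 17.9% of its variable counts to its most used segment. Naive vehicle library 3 had 131 segments with a count and 104 at equal depth.

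With AP20187 after DMM, library 58 stood apart for Ighv1-15 (9.49 CPM), Iglv2 (7.12 CPM), Ighv1-42 (2.29 CPM) and Igkv8-27 (2.26 CPM). Library 59 did for Igkv3-5 (23.2 CPM) and Igkv12-98 (11.3 CPM). Library 60 did for Igkv10-96 (6.93 CPM), Ighv1-4 (3.57 CPM) and Ighv1-72 (0.0611 CPM, from 4 counts). Library 61 did for Igkv6-15 (2.01 CPM), and library 62 for Igkv1-110 (18.1 CPM) and Ighv1-82 (18.0 CPM).

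With vehicle after DMM, library 63 stood apart for Igkv15-103 (4.99 CPM) and Ighv7-3 (2.74 CPM), and library 64 for Iglv1 (10.8 CPM) and Iglv2 (7.23 CPM).

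In naive mice with AP20187, library 1 stood apart for Igkv1-110 (26.7 CPM), Igkv1-117 (3.68 CPM), Ighv1-15 (3.42 CPM), Igkv6-15 (3.11 CPM), Ighv8-8 (3.06 CPM), Igkv15-103 (2.27 CPM) and Igkv12-98 (0.415 CPM). Library 3 did for Igkv10-96 (24.8 CPM), Ighv1-4 (19.9 CPM), Ighv1-82 (16.5 CPM), Ighv1-81 (3.36 CPM) and Igkv6-23 (0.0507 CPM). Library 4 did for Ighv7-3 (3.85 CPM) and Igkv3-5 (0.101 CPM), and library 5 for Igkv3-4 (3.68 CPM), Ighv1-72 (1.02 CPM) and Ighv9-3 (0.259 CPM).

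In naive mice with vehicle, library 1 stood apart for Iglv2 (0.220 CPM) and Ighv5-2 (0.157 CPM). Library 3 did for Ighv1-82 (1.73 CPM), Igkv1-110 (1.47 CPM), Igkv14-126 (0.640 CPM) and Ighv11-2 (0.427 CPM). Library 4 did for Ighv9-3 (5.66 CPM) and Ighv1-15 (0.129 CPM), and library 5 for Igkv12-98 (0.0267 CPM).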

How the results depend on the processing

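Segments called after DMM (7) were 13 by DESeq2 (which called 31.4% of all genes), 1 against vehicle libraries 63 and 64 (4.73%) and 11 against 32, 33 and 34 (36.3%). In naive mice (1) they were 9 by DESeq2 (17.8%) and 0 without TMM scaling (10.8%) or without the filter (4.89%). Between DMM and naive with AP20187 (1) they were 19 by DESeq2 (4.53%), 2 without TMM scaling (1.03%) and 0 without the filter (0.199%), and for the interaction (0) they were 5 by DESeq2 (0.940%). As each library was left out, calls ranged from 3 to 12 after DMM (3 without AP20187 library 58 or vehicle library 32 or 33, 12 without AP20187 library 61 or vehicle library 64), from 0 to 4 in naive mice (0 without AP20187 library 1 or 3 or vehicle library 1, 2, 4 or 5) and from 0 to 5 between DMM and naive with AP20187 (0 without DMM library 59 or 60 or naive library 1, 4 or 5). They stayed at 0 for DMM against naive with vehicle and for the interaction.

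Naive groups share the numbers 1, 3, 4 and 5. With the replicate number as a block, 0 segments passed in naive mice, with 39 tested, and 0 for the interaction. Same-numbered naive libraries had correlations of 0.0235, 0.301, -0.0822 and 0.183. AP20187 library 3 matched best with the vehicle library of its own number, and libraries 1, 4 and 5 with one of another number. So few libraries cannot decide whether the numbers pair samples.

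Between the vehicle groups, the differences in total, effective number, share of the most used segment and number of segments each changed sign as a library was left out, as did the share after DMM. The log2 difference in variable total after DMM (2.33) was 0.81 against vehicle libraries 63 and 64, and that between DMM and naive vehicle (0.29) was 1.81 with those libraries and -0.73 with 32, 33 and 34. Leaving out a library gave 1.82 to 2.78 after DMM, 0.77 to 1.43 in naive mice, -0.16 to 0.81 between vehicle groups and 1.19 to 1.85 between AP20187 groups. The difference in effective number was -23.5 after DMM and -40.4 in naive mice as the exponential of Shannon entropy. In naive mice it was -15.7 for heavy and -11.6 for kappa segments, and between AP20187 groups it was 5.66 for kappa segments. Leaving out a library gave -16.3 to -6.67, -29.4 to -22.4, -7.16 to 2.50 and 9.25 to 13.8 in the same order of comparisons. The difference in the share of the most used segment, in percentage points, was 19.9 (heavy) and 22.9 (kappa) in naive mice and -14.6 and -17.1 between AP20187 groups. Leaving out a library gave -0.22 to 3.30, 8.75 to 13.5, -1.29 to 2.26 and -11.5 to -6.75. For segments with at least 10 counts at full depth, an alternative chosen after seeing the data, the differences were -8.60 after DMM, -22.75 in naive mice, 9.60 between vehicle groups (-1.83 at equal depth) and 23.75 between AP20187 groups. At equal depth, leaving out a library gave -45.4 to -31.5, -53.1 to -47.0, -6.65 to 7.24 and 10.7 to 14.9. The cause of these shifts was not tested.

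Library 32, with 497 variable counts, sets the equal depth. Segments with few counts, the near-identical copies, and groups of 4 or 5 libraries with few dominant segments each limit what single-segment tests can show.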
